A study of Hordeum vulgare with 12 samples.

Results

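Barley crowns sampled 3 h after seedlings met auxin were compared with crowns sampled 30 min after it, 3 libraries against 3, out of 12 libraries in the series. The plants were Hordeum vulgare, cultivar Golden Promise, and the series describes a crown-root inducible system, in which shoot-borne roots are first held back and then started together. Seedlings were raised in dilute Hoagland solution with 50 µM NPA, which blocks polar auxin transport, and were then moved to the same solution in which 50 µM 1-NAA, a synthetic auxin, took its place. The crown is the 2 mm junction of roots and stem, and each library was made from a pool of 5 crowns. The series gives 4 times, with 0 h taken before the move and the others 30 min, 1 h or 3 h later, and 3 independent biological replicates at each. Libraries were chosen by their labels alone: those of 30 min and of 3 h, which both had the earlier NPA, the 1-NAA and the change of solution. They differ in the time spent on auxin and, with it, in the time since handling, the time without NPA and the hour of the day. No crowns kept off auxin were sampled at 30 min or 3 h in the libraries used here, so these cannot be told apart. The comparison shows which genes differ between an early and a later point of induction.

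Auxin acts by binding TIR1 and AFB receptors, which then mark Aux/IAA repressors for destruction and free auxin response factors to act on their targets. Among the direct targets are the Aux/IAA genes themselves, SAUR genes and GH3 genes, whose enzymes join auxin to amino acids and so take it out of action. In cereals, crown roots start in the stem base. In rice, the LOB-domain factor CRL1 and the homeobox factor WOX11 are needed for their formation or outgrowth. CRL4, the rice relative of the Arabidopsis vesicle-traffic factor GNOM, acts in the placing of auxin efflux carriers. Cytokinin is known to restrain root initiation, and ethylene, gibberellin and jasmonate modify it.

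Depth was alike on both sides. Reads assigned to genes numbered 18502420, 23519719 and 25438445 in the 30 min libraries and 22710691, 25664867 and 23737664 in the 3 h libraries. The share of reads assigned was 64.8% and 56.0% in replicate 1 of 30 min and of 3 h, and lay between 72.8% and 78.4% in the other 4. Values below are CPM, counts scaled to each library's assigned reads times its TMM normalization factor, listed in the order of replicates 1, 2 and 3. In these libraries 3 reads correspond to 0.114 to 0.166 CPM, a floor that covers counting error only. Log2 fold changes are 3 h minus 30 min with their standard error, and p-values are from edgeR's quasi-likelihood test, adjusted over all 24920 tested genes. They measure differences between pools of 5 crowns.

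By 3 h, 378 genes stood higher than at 30 min and 289 stood lower, 2.68% of the tested genes together (1.52% higher and 1.16% lower). The 12 largest rises among genes with a mean of at least 1 CPM included a lectin kinase gene, a canalization gene, both GH3.3 genes described below, a cytokinin-activating enzyme, an ACC synthase, a WOX11 homolog, a PRE6-like gene and a gibberellin 2-oxidase. The 12 largest falls included 6 jasmonate ZIM-domain (JAZ) repressors, an ethylene response factor, a heat shock factor and a helix-loop-helix factor. The median log2 fold change was 1.67 among the 378 and -1.30 among the 289, and -0.0061 over all tested genes. Of the rises 301 were at least 1 on the log2 scale, 146 at least 2 and 23 at least 4. Of the falls 202 were at least 1, 74 at least 2 and 17 at least 4 in size. All 667 had their 3 h libraries wholly on one side of their 30 min libraries, as did 7.3% (above) and 8.03% (below) of all tested genes. Of these calls, 256 rises and 201 falls belonged to none of the gene lists used here.

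The number of calls moved with the libraries used. A fit with the replicate as a block placed 750 genes higher (3.01%) and 834 lower (3.35%), and DESeq2 placed 693 higher (2.78%) and 675 lower (2.71%), and each held all 378 and all 289. Same-numbered libraries of both times deviated together, most clearly those of replicate 1, as set out with the processing. Leaving out replicate 2 of 30 min gave counts of 218 and 136, and leaving out replicate 2 or replicate 3 of 3 h gave 258 and 143 or 248 and 116.

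**Figure D1:**
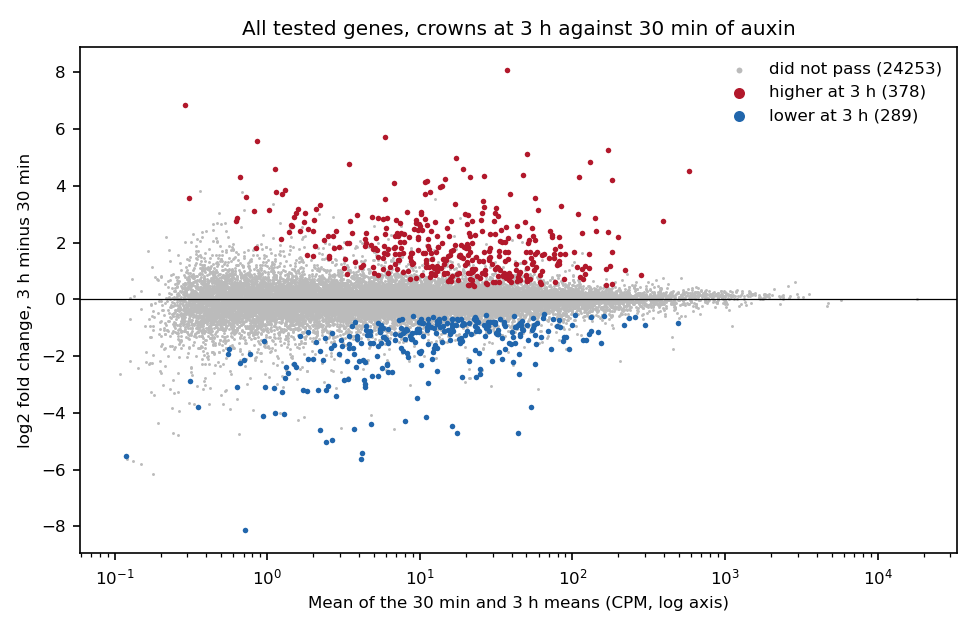
Each point is 1 of 24920 tested genes, with its mean level (CPM, log axis) across and its log2 fold change (3 h minus 30 min) up. Red points are the 378 genes higher at 3 h and blue points the 289 genes lower. Among them, 23 of the red and 17 of the blue points lie at 4 or more in size.

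Auxin-conjugating GH3 genes gave some of the steepest rises. One described as GH3.3, HORVU.MOREX.r2.2HG0106420.1 (2H, start 121197894, end 121199873), stood at 48.5, 42.8 and 51.3 CPM at 30 min and at 825, 1173 and 1322 CPM at 3 h, a log2 fold change of 4.54 ± 0.25 (edgeR adjusted p = 1.07e-05). Its 30 min libraries already stood above those of 0 h (9.08, 9.48 and 9.82 CPM), and its 3 h libraries lay far above all earlier ones. Another GH3.3 gene, HORVU.MOREX.r2.3HG0242100.1 (chromosome 3H, 505959452 to 505963259), went from 15, 4.07 and 7.17 CPM to 294, 329 and 372 CPM, 5.26 ± 0.43 on the log2 scale (edgeR adjusted p = 9.88e-05). Its 30 min libraries overlapped those of 0 h, at 3.48, 2.86 and 4.73 CPM, with replicate 1 of 30 min the highest. The GH3 gene HORVU.MOREX.r2.1HG0054200.1, similar to Arabidopsis GH3.6, had 25.1, 60.6 and 28.2 CPM and then 75.4, 211 and 291 CPM (2.34 ± 0.50, edgeR adjusted p = 0.0306). The groups did not overlap, but the lowest 3 h library was close to the highest 30 min library, and the call was lost without replicate 1 or 3 of 30 min or replicate 2 or 3 of 3 h (edgeR adjusted p up to 0.12). Of 11 GH3 genes 9 were tested, 3 rose and none fell (1 fell with the replicate block), with a median log2 fold change of 0.86. A dioxygenase gene whose first rice homolog is DAO, HORVU.MOREX.r2.2HG0144850.1, rose as well; DAO inactivates auxin by oxidation in rice. Its libraries were at 18, 16.6 and 20.7 CPM at 30 min and at 242, 374 and 412 CPM at 3 h (4.22 ± 0.28, edgeR adjusted p = 1.90e-05).

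Aux/IAA repressors rose in 12 of 21 tested members (57.1%) and fell in none, with a median of 1.56. In fits that left out 1 library, between 10 and 12 of them passed. The IAA4-like gene HORVU.MOREX.r2.6HG0520360.1 was at 14.6, 3.52 and 13.8 CPM at 30 min, where replicate 2 was lowest, and at 179, 210.2 and 245 CPM at 3 h (4.32 ± 0.50, edgeR adjusted p = 0.000622). A pair of IAA17-like genes rose from higher starting levels. HORVU.MOREX.r2.3HG0199050.1 had 21.8, 23.6 and 27.1 CPM against 126, 211 and 243 CPM (3.00 ± 0.25, edgeR adjusted p = 0.000101). HORVU.MOREX.r2.1HG0021490.1 had 26.9, 28.6 and 45.5 CPM against 186, 260.2 and 299.7 CPM (2.88 ± 0.28, edgeR adjusted p = 0.000216). In both genes replicate 1 was the lowest and replicate 3 the highest library at each time, and the groups were far apart. Summed over the family, the level was 1184, 1389 and 1457 CPM at 30 min and 2186, 2770.3 and 3245 CPM at 3 h.

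SAUR genes, small auxin-induced genes tied to cell expansion, gave 7 rises and 1 fall among 45 tested, with a median of 0.45. The count of rises was 15 with the replicate block, and 4 without replicate 2 of 30 min or of 3 h. HORVU.MOREX.r2.2HG0152760.1 stood at 2.77, 1.78 and 3.01 CPM at 30 min and 12.5, 11.3 and 12.1 CPM at 3 h (2.25 ± 0.30, edgeR adjusted p = 0.00172). HORVU.MOREX.r2.5HG0416900.1, similar to Arabidopsis SAUR66, had 2.22, 1.61 and 1.79 CPM and then 7.73, 9.73 and 7.96 CPM (2.18 ± 0.27, edgeR adjusted p = 0.00115). The SAUR31-like gene HORVU.MOREX.r2.7HG0584000.1, described only as an auxin-responsive family protein, gave a larger rise, from 2.72, 2.72 and 1.87 CPM to 45.7, 49.1 and 54.9 CPM (4.36 ± 0.27, edgeR adjusted p = 1.90e-05). In all 3 genes the lowest 3 h library stood well above the highest 30 min library. The 1 SAUR fall, HORVU.MOREX.r2.7HG0610870.1, was -1.51 ± 0.35 (edgeR adjusted p = 0.045) and was lost in 5 of the 6 fits that left out 1 library, all but that without replicate 1 of 30 min (edgeR adjusted p up to 0.18).

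Auxin response factors, the transcription factors that the repressors hold back, rose in 4 of 29 tested members and fell in none. The share that rose was 13.8%, against 1.52% of all tested genes, while the family median was 0.09. On leaving out 1 library that median ranged from -0.03 (replicate 1 of 30 min) to 0.18 (replicate 2 of 30 min), and it was -0.0027 without replicate 3 of 3 h. The ARF16-like gene HORVU.MOREX.r2.2HG0150790.1 was at 41, 27.5 and 38.7 CPM and then at 170.0, 109.9 and 113 CPM (1.87 ± 0.25, edgeR adjusted p = 0.00182). The ARF19-like gene HORVU.MOREX.r2.6HG0463500.1, relative of an activator of LOB-domain genes in Arabidopsis, was at 16.4, 23.6 and 21.8 CPM and then at 58.7, 50.9 and 57.1 CPM (1.43 ± 0.15, edgeR adjusted p = 0.000386). Neither gene had overlapping groups. Of 36 tested genes of auxin synthesis and reception none rose and 2 fell. One was the receptor gene HORVU.MOREX.r2.4HG0338270.1, similar to AFB5, at 51.4, 53.7 and 64.4 CPM and then 30.9, 28.4 and 27.7 CPM (-0.96 ± 0.15, edgeR adjusted p = 0.00411). The other was the flavin-containing monooxygenase gene HORVU.MOREX.r2.3HG0238160.1, of the class that holds the YUCCA enzymes of auxin synthesis in Arabidopsis, at 1.11, 3.23 and 1.6 CPM and then 0.092, 0.203 and 0.371 CPM (-3.12 ± 0.55, edgeR adjusted p = 0.00956). Its 3 h libraries were near or under the level of 3 reads, and without replicate 2 of 3 h its adjusted p was 0.0538.

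Auxin transport genes were matched by words for efflux carriers (PIN proteins), many of which move auxin out of cells, and for other auxin transporters. Of 15 tested, 5 rose and none fell, with a median of 0.66 (1.38 without replicate 3 of 30 min, and 0.35 with no filter on low counts). Without replicate 1 or 2 of 30 min or replicate 3 of 3 h, 3 passed. The PIN8-like gene HORVU.MOREX.r2.3HG0236360.1 had 3.11, 3.31 and 3.24 CPM at 30 min and 18.8, 17.9 and 15.9 CPM at 3 h (2.44 ± 0.19, edgeR adjusted p = 5.99e-05). The efflux carrier gene HORVU.MOREX.r2.4HG0297660.1 had 24.9, 29.3 and 25.7 CPM and then 94.6, 128 and 140.3 CPM (2.18 ± 0.20, edgeR adjusted p = 0.000157). In both genes the 30 min libraries overlapped those of 0 h, at 3.54, 2.78 and 2.94 CPM and 28.8, 41.8 and 25.1 CPM.

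Genes described as auxin canalization proteins (DUF828) gave 5 rises and no fall among 9 tested, with a median of 1.82. Canalization is the narrowing of auxin flow into files of cells that later form vascular strands. The canalization list was drawn up after its values were seen. HORVU.MOREX.r2.4HG0346860.1 (chromosome 4H, 618562726 to 618564688) went from 0.388, 0.255 and 0.0381 CPM, near or under the level of 3 reads, to 12.5, 10.7 and 11.5 CPM (5.72 ± 0.56, edgeR adjusted p = 0.000245). Its neighbour on 4H, HORVU.MOREX.r2.4HG0346890.1, was at 3.05, 1.61 and 1.33 CPM and then at 16.4, 10.4 and 11.6 CPM (2.69 ± 0.38, edgeR adjusted p = 0.00242). HORVU.MOREX.r2.1HG0046110.1 was at 6.32, 5.35 and 7.21 CPM and then at 39.2, 44.2 and 49.3 CPM (2.81 ± 0.20, edgeR adjusted p = 3.66e-05). In all 3 genes the lowest 3 h library was more than 3 times the highest 30 min library.

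**Figure D2:**
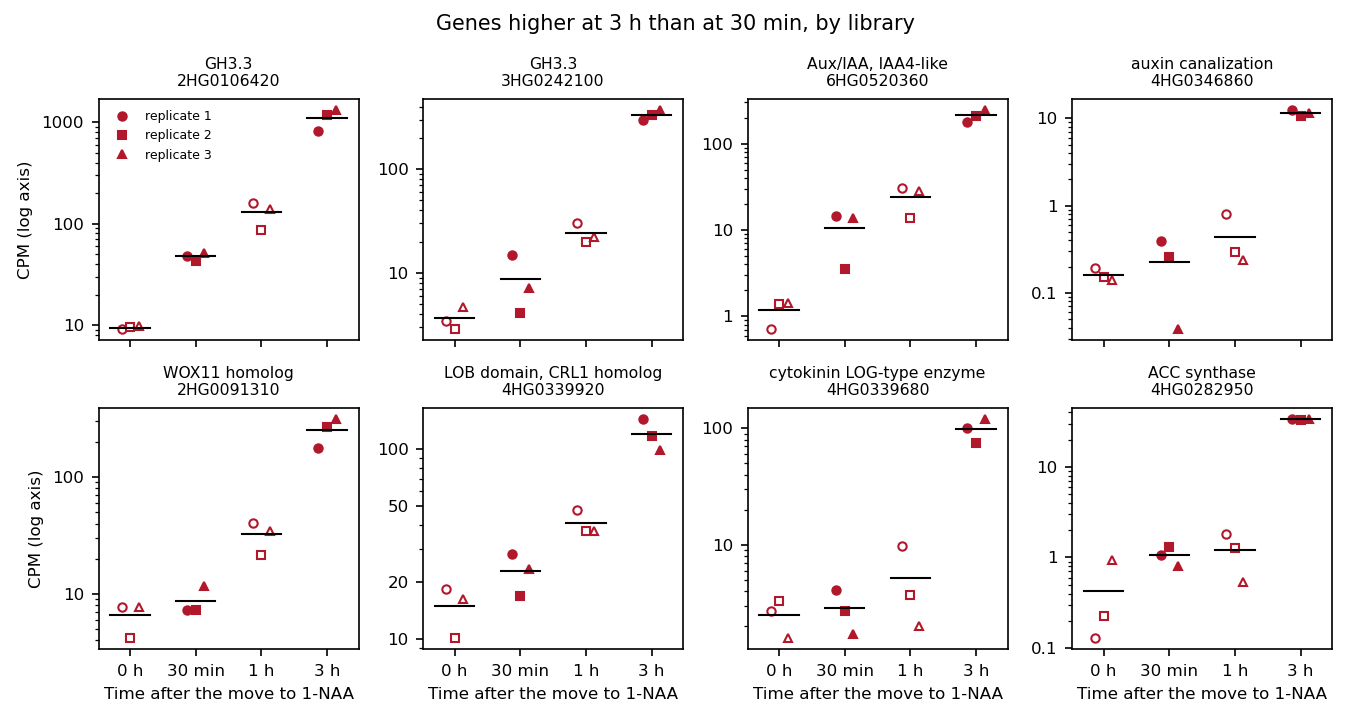
Level (CPM, log axis) of 8 genes by time after the move to 1-NAA, with filled symbols for 30 min and 3 h, open symbols for 0 h and 1 h, shapes for the replicate number and lines for the mean of 3 libraries. In each gene all 3 libraries of 3 h lie above all 9 earlier ones.

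Among factors tied to root initiation, WUSCHEL-related homeobox and LOB-domain genes held rises. The WOX11 homolog HORVU.MOREX.r2.2HG0091310.1 (chromosome 2H, 32750309 to 32752599) stood at 7.26, 7.34 and 11.7 CPM at 30 min, overlapping 0 h (7.72, 4.19 and 7.75 CPM), and at 176, 266 and 316 CPM at 3 h. Its log2 fold change was 4.85 ± 0.36 (edgeR adjusted p = 5.15e-05). The WOX6-like gene HORVU.MOREX.r2.4HG0315980.1 was at 0.832, 0.849 and 0.991 CPM and then at 6.44, 5.56 and 6.15 CPM (2.75 ± 0.35, edgeR adjusted p = 0.00138). The gene HORVU.MOREX.r2.3HG0251360.1, whose Arabidopsis homolog WOX5 marks the quiescent centre of the root tip, had 0.832, 1.19 and 2.82 CPM and then 3.63, 6.89 and 10.9 CPM (2.13 ± 0.50, edgeR adjusted p = 0.0458). In the WOX5-like gene replicate 3 was highest at both times and the groups came close, and its call was lost without replicate 1 or 2 of 30 min or replicate 2 or 3 of 3 h (edgeR adjusted p up to 0.183). Together 3 of 6 tested WUSCHEL-related genes rose and none fell, with a median of 1.20 (0.27 with no filter on low counts).

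LOB-domain genes rose in 6 of 22 tested members and fell in none, although the median of the family was -0.19. The median was 0.12, 0.03 and 0.01 without replicate 1 of 30 min, replicate 3 of 30 min and replicate 1 of 3 h, it was 0.06 with no filter on low counts, and 4 members rose without replicate 2 or 3 of 3 h. The homolog of rice CRL1 and maize RTCS, HORVU.MOREX.r2.4HG0339920.1 (chromosome 4H, 595307482 to 595308336), stood at 28.1, 16.9 and 23.5 CPM at 30 min and 145, 117 and 99 CPM at 3 h (2.40 ± 0.25, edgeR adjusted p = 0.000405). The LOB gene beside it, HORVU.MOREX.r2.4HG0339910.1 (chromosome 4H, 595300256 to 595300810), was at 0.222, 0.0424 and 0.229 CPM, near or under the level of 3 reads, and then at 1.52, 2.96 and 2.85 CPM (3.87 ± 0.54, edgeR adjusted p = 0.00231). A LBD18-like gene, HORVU.MOREX.r2.4HG0326090.1, was at 0.388, 1.1 and 1.11 CPM and then at 5.11, 6.49 and 9.08 CPM (2.96 ± 0.45, edgeR adjusted p = 0.00405). LBD18 acts in lateral root formation in Arabidopsis. The homolog of rice CRL4, HORVU.MOREX.r2.4HG0278080.1, was at 31.1, 39.3 and 42.9 CPM and 30.5, 41.2 and 41.3 CPM (-0.0046 ± 0.16, edgeR adjusted p = 0.997), and its groups overlapped throughout.

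Homeobox-leucine zipper genes, several of which respond to shade and auxin in Arabidopsis, rose in 4 of 22 tested members (2 without replicate 1 or 2 of 30 min or replicate 2 or 3 of 3 h). None of them fell, and the median was 0.13 (from 0.05 to 0.25 on leaving out replicate 1 or replicate 3 of 30 min). The HAT1-like gene HORVU.MOREX.r2.7HG0537950.1 had 8.15, 7.17 and 8.12 CPM and then 22.2, 23.9 and 21.5 CPM (1.53 ± 0.19, edgeR adjusted p = 0.000978). The HOX17-like gene HORVU.MOREX.r2.2HG0157290.1 had 5.6, 4.92 and 5.22 CPM and then 11.1, 13.9 and 12.5 CPM (1.25 ± 0.18, edgeR adjusted p = 0.00298). Libraries of each time were close together in both. GRAS genes, the family of SCARECROW and SHORT-ROOT, rose in 2 of 38 and fell in none (5 and 2 with the replicate block, and 1 rise without replicate 1 or 2 of 30 min or replicate 2 of 3 h). Their share of rises was 5.26%, against 1.52% of all tested genes. A gene described as a Scarecrow factor, HORVU.MOREX.r2.2HG0139280.1, was at 2.11, 3.06 and 3.58 CPM and then at 8.28, 14.1 and 13.5 CPM (2.03 ± 0.29, edgeR adjusted p = 0.00268). The closer homolog of SCARECROW, HORVU.MOREX.r2.5HG0383850.1, a gene that patterns the ground tissue of roots in Arabidopsis, was at 28.8, 30.5 and 33.4 CPM and then at 63.3, 70.4 and 47.4 CPM (0.97 ± 0.19, edgeR adjusted p = 0.0225). That call was lost without replicate 1 or 2 of 30 min or replicate 2 of 3 h (edgeR adjusted p up to 0.0959). Of 21 tested AP2-like genes, the family of the root-tip PLETHORA factors, none passed either way, with a median of 0.06 (from 0.0059 to 0.16 on leaving out replicate 1 or replicate 3 of 30 min). In this list 1 gene rose on leaving out replicate 1 of 3 h, and 2 with the replicate block and the 30 min and 3 h libraries alone. The AIL5-like gene HORVU.MOREX.r2.7HG0614120.1 was at 1.03 ± 0.38 (edgeR adjusted p = 0.238) and the AINTEGUMENTA-like gene HORVU.MOREX.r2.5HG0426580.1 at 1.08 ± 0.44 (edgeR adjusted p = 0.312). Each of these genes passed in 1 of 14 alternative fits.

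KNOX and BEL homeobox genes, which keep shoot meristem cells undetermined, gave 2 falls and no rise among 25 tested. Their share of falls was 8%, against 1.16% of all tested genes. The median was -0.15 (1 fall without replicate 2 of 30 min, and a median of -0.06 without replicate 1 of 3 h). The ATH1-like BEL gene HORVU.MOREX.r2.7HG0595310.1 had 19.3, 19.4 and 19.4 CPM at 30 min and 5.98, 5.35 and 2.27 CPM at 3 h (-2.10 ± 0.30, edgeR adjusted p = 0.0028). It showed nearly the same level in all 30 min libraries and its lowest value in replicate 3 of 3 h. The KNOX gene HORVU.MOREX.r2.4HG0343610.1 had 8.82, 20.5 and 17.2 CPM and then 3.17, 5.23 and 4.58 CPM (-1.84 ± 0.33, edgeR adjusted p = 0.0115), and lost its call without replicate 2 of 30 min (edgeR adjusted p = 0.053).

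Cytokinin genes gave 5 rises and 5 falls among 48 tested (7 and 8 with the replicate block) and a median of -0.06, which was 0.03 without replicate 1 of 30 min and -0.19 without replicate 3 of 30 min. LOG-type enzymes, which release active cytokinin from its nucleotides, held 4 of the rises among 11 tested. The steepest, HORVU.MOREX.r2.4HG0339680.1 (chromosome 4H, 594559030 to 594563201), went from 4.1, 2.72 and 1.72 CPM to 100.2, 74.3 and 122 CPM (5.13 ± 0.56, edgeR adjusted p = 0.000489). Another LOG-type gene, HORVU.MOREX.r2.1HG0033760.1, was at 10.3, 16.6 and 8.62 CPM and then at 64.3, 102 and 152 CPM (3.17 ± 0.36, edgeR adjusted p = 0.000622). In HORVU.MOREX.r2.3HG0235580.1 the libraries were at 20.7, 20.03 and 18.2 CPM and then at 66.4, 78.6 and 109 CPM (2.11 ± 0.20, edgeR adjusted p = 0.000161). In all 3 genes the 30 min libraries overlapped those of 0 h, and the 3 h libraries lay above both. Cytokinin oxidases, which degrade the hormone, moved both ways: HORVU.MOREX.r2.3HG0265950.1 rose by 2.25 ± 0.37 (edgeR adjusted p = 0.00582) and HORVU.MOREX.r2.7HG0620270.1 changed by -0.93 ± 0.17 (edgeR adjusted p = 0.0111). Response regulators, the output of cytokinin signalling, held 4 falls and no rise among 27. HORVU.MOREX.r2.5HG0381410.1, similar to rice ORR10, was at 66.2, 72.9 and 53.2 CPM and then at 30.2, 25.2 and 22.6 CPM (-1.30 ± 0.22, edgeR adjusted p = 0.00649). In the cytokinin list 2 falls were called without replicate 3 of 3 h and 3 falls without any 1 of replicates 1 and 2 of each time. Adenylate isopentenyltransferases, which make cytokinin, also moved in opposite directions, in genes outside that list that the deposited table describes as tRNA-modifying transferases. The IPT1-like gene HORVU.MOREX.r2.3HG0233070.1 was at 0.499, 0.212 and 0.496 CPM and then at 2.39, 3.53 and 6.27 CPM (3.33 ± 0.59, edgeR adjusted p = 0.0105), with an adjusted p of 0.0588 without replicate 2 of 30 min. The IPT5-like gene HORVU.MOREX.r2.5HG0434790.1 was at 6.49, 13.5 and 13.7 CPM and then at 0.966, 3.08 and 1.57 CPM (-2.57 ± 0.40, edgeR adjusted p = 0.00424).

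Ethylene synthesis genes gave 1 rise and 4 falls among 12 tested (2 and 5 with the replicate block), with a median of -0.56. The ACC synthase gene HORVU.MOREX.r2.4HG0282950.1 (chromosome 4H, 26133041 to 26134817), for the enzyme that makes the ethylene precursor, was at 1.05, 1.32 and 0.801 CPM at 30 min and at 33.6, 33.3 and 34.2 CPM at 3 h (4.99 ± 0.52, edgeR adjusted p = 0.000397). All its 3 h libraries were nearly equal. The opposite course was seen in HORVU.MOREX.r2.2HG0154390.1, also for ACC synthase, with 4.94, 9 and 5.76 CPM and then 0.874, 1.66 and 1.86 CPM (-2.16 ± 0.42, edgeR adjusted p = 0.0176), and lost its call without replicate 2 of 30 min or replicate 2 of 3 h (edgeR adjusted p up to 0.076). ACC oxidases, which carry out the last step, fell in 3 of 8 tested members. A neighbouring pair on 6H was among them. HORVU.MOREX.r2.6HG0513090.1 was at 51, 42.4 and 43.8 CPM and then at 20.3, 19.1 and 19.2 CPM (-1.23 ± 0.19, edgeR adjusted p = 0.0042). HORVU.MOREX.r2.6HG0513110.1 was at 215, 131 and 199 CPM and then at 89.4, 75.4 and 87.9 CPM (-1.11 ± 0.19, edgeR adjusted p = 0.00992; 0.0557 without replicate 2 of 3 h). Leaving out replicate 2 of 3 h gave 1 fall in the list, and leaving out that of 30 min gave 2.

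Ethylene response factors, a large family of which many members answer to stress rather than ethylene, gave 3 rises and 5 falls among 71 tested. The shares were 4.23% and 7.04%, against 1.52% and 1.16% of all tested genes. Rises and falls numbered 8 and 8 with the replicate block, and falls 3 without replicate 3 of 3 h. The median was -0.08, and 0.03 without replicate 3 of 30 min. Their largest fall was HORVU.MOREX.r2.3HG0249690.1, at 19.96, 26.1 and 16.1 CPM and then 0.782, 1.99 and 0.701 CPM (-4.15 ± 0.47, edgeR adjusted p = 0.000617). Its 3 h libraries were below all 9 others, the 0 h libraries included (11.6, 6.36 and 8.46 CPM). The ERF034-like gene HORVU.MOREX.r2.2HG0157200.1 was at 9.32, 23.6 and 19.8 CPM and then at 1.79, 1.26 and 1.73 CPM (-3.46 ± 0.44, edgeR adjusted p = 0.00129).

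Gibberellin oxidases gave 2 rises and 1 fall among 12 tested (4 and 1 with the replicate block, and 1 rise without replicate 2 of 30 min), all in genes described as 2-oxidases, which inactivate the hormone. HORVU.MOREX.r2.2HG0150970.1 went from 3.33, 0.976 and 0.419 CPM to 29.8, 32.4 and 48 CPM (4.60 ± 0.85, edgeR adjusted p = 0.0134). Its 30 min libraries spread widely, and without replicate 2 of 30 min its adjusted p was 0.0787. HORVU.MOREX.r2.1HG0019640.1 went from 6.49, 7.85 and 6.37 CPM to 34.3, 35.9 and 35.2 CPM (2.35 ± 0.21, edgeR adjusted p = 0.000141). The falling gene, HORVU.MOREX.r2.3HG0240680.1, was at 41.6, 57.1 and 29.1 CPM and then at 7.55, 6.93 and 6.39 CPM (-2.61 ± 0.35, edgeR adjusted p = 0.00195), and its 0 h libraries lay between, at 21.8, 10.8 and 12.8 CPM.

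Jasmonate genes gave 10 falls and 1 rise among 70 tested (16 and 2 with the replicate block), with a median of -0.19. Leaving out replicate 2 of 3 h gave -0.44, and leaving out replicate 1 or replicate 3 of 30 min gave -0.31 or -0.12. JAZ proteins, repressors that jasmonate itself induces, made up 8 of the 10, out of 15 JAZ and TIFY genes tested, and had a median of -3.19. The split into JAZ and other genes was made after the values were seen. Of these 8, 6 lie side by side on 7H, with 4 adjacent genes between 106562361 and 106726225 and 2 more between 106743572 and 106760699. The deepest fall of the group, HORVU.MOREX.r2.7HG0555360.1 (chromosome 7H, 106725797 to 106726225), was at 4.66, 7.55 and 11.9 CPM at 30 min and at 0.276, 0.122 and 0.0825 CPM at 3 h (-5.63 ± 0.74, edgeR adjusted p = 0.00166). It was low in the 0 h libraries (0.193, 0.305 and 1.13 CPM) and the 1 h libraries (0.744, 0.622 and 1.66 CPM), and the 30 min libraries stood above all 9 others. The genes HORVU.MOREX.r2.7HG0555340.1, HORVU.MOREX.r2.7HG0555330.1, HORVU.MOREX.r2.7HG0555350.1, HORVU.MOREX.r2.7HG0555380.1 and HORVU.MOREX.r2.7HG0555400.1 had log2 fold changes of -4.28 ± 0.74, -4.37 ± 0.85, -3.07 ± 0.60, -5.41 ± 0.99 and -4.96 ± 0.97. These 5 lost their call without replicate 2 of 3 h (edgeR adjusted p between 0.0516 and 0.0934). Without replicate 3 of 3 h, HORVU.MOREX.r2.7HG0555330.1, HORVU.MOREX.r2.7HG0555350.1 and HORVU.MOREX.r2.7HG0555400.1 were also lost. So was HORVU.MOREX.r2.7HG0555330.1 without replicate 2 of 30 min, HORVU.MOREX.r2.7HG0555350.1 without replicate 3 of 30 min, and HORVU.MOREX.r2.7HG0555400.1 without either. How reads that match several copies were counted is not given in the sources used here, so the values of single genes in such groups are uncertain.

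JAZ genes elsewhere fell too. HORVU.MOREX.r2.2HG0135180.1 was at 2, 9 and 1.87 CPM and then at 0.368, 0.122 and 0.0413 CPM (-4.60 ± 0.90, edgeR adjusted p = 0.0184), with replicate 2 of 30 min far above the others. HORVU.MOREX.r2.5HG0398310.1 was at 19.6, 70.4 and 35.5 CPM and then at 4.79, 9.57 and 8.75 CPM (-2.44 ± 0.56, edgeR adjusted p = 0.0406). At 1 h it stood at 34.1, 81.1 and 58.1 CPM. A lipoxygenase gene, HORVU.MOREX.r2.2HG0141810.1, of the class that holds enzymes of the first step of jasmonate synthesis, was at 17.2, 60.7 and 24.8 CPM and then at 4.46, 8.88 and 9.28 CPM (-2.18 ± 0.46, edgeR adjusted p = 0.0284). These 3 calls were lost without replicate 2 of 30 min or replicate 2 or 3 of 3 h, the 5H gene also without replicate 3 of 30 min, and it and the lipoxygenase gene also without replicate 1 of 3 h. Without replicate 2 of 30 min, where all 3 genes were highest, they had values that missed the threshold (edgeR adjusted p = 0.0682, 0.157 and 0.0935). The falls of the jasmonate list numbered 4 without replicate 2 of 30 min and 6 without replicate 3 of 30 min, and 2 and 3 without replicate 2 and replicate 3 of 3 h. A pair of genes described only as basic helix-loop-helix factors fell as well. HORVU.MOREX.r2.2HG0131040.1 was at 34.7, 186 and 33.9 CPM and then at 1.61, 5.76 and 2.27 CPM (-4.71 ± 0.98, edgeR adjusted p = 0.0259), again with replicate 2 of 30 min highest, and was lost without it (edgeR adjusted p = 0.0844) or without any library of 3 h (edgeR adjusted p up to 0.125). HORVU.MOREX.r2.3HG0181460.1 was at 19.9, 56.1 and 22.4 CPM and then at 4.74, 5.07 and 4.95 CPM (-2.73 ± 0.39, edgeR adjusted p = 0.00277).

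**Figure D3:**
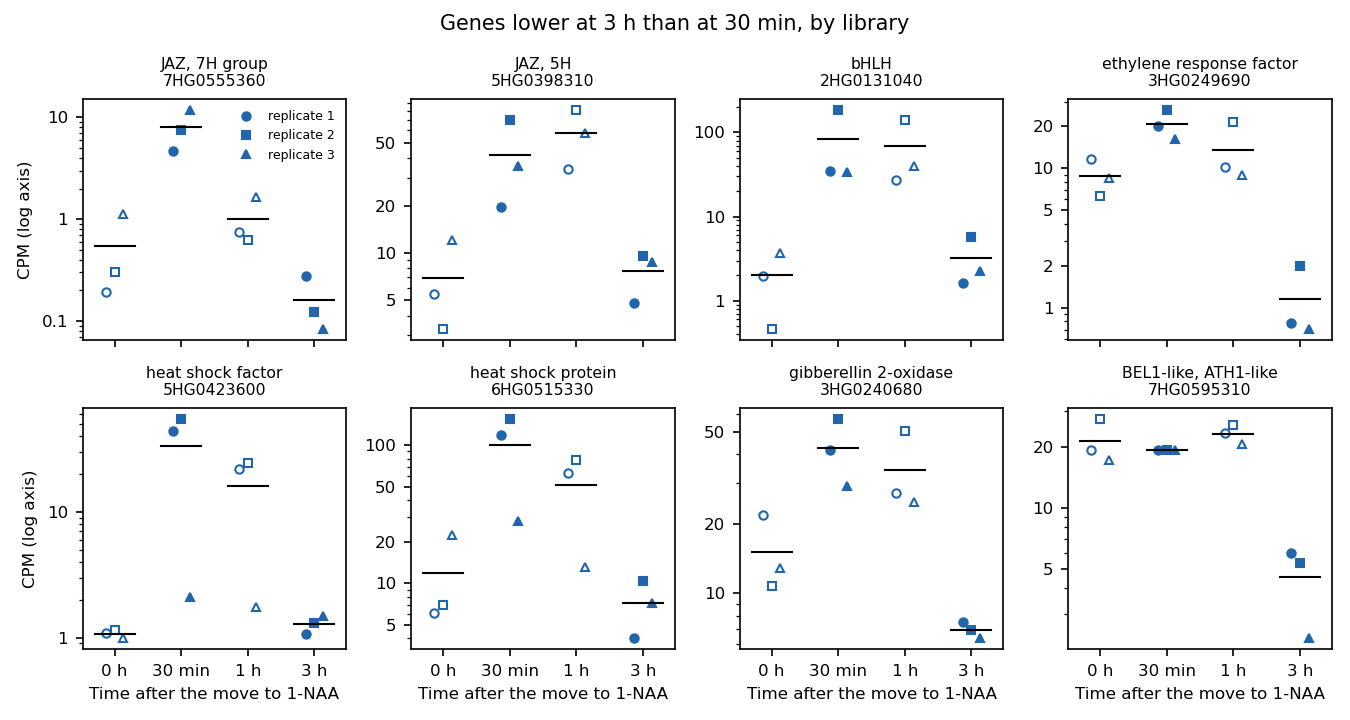
Level (CPM, log axis) of 8 genes by time after the move to 1-NAA, drawn with filled symbols for 30 min and 3 h, open symbols for 0 h and 1 h, shapes for the replicate number and lines for the mean of 3 libraries. The 7H JAZ gene is high in the 30 min libraries alone, the heat shock genes are high in replicates 1 and 2 of 30 min and 1 h, and the BEL1-like gene is low in the 3 h libraries alone.

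Heat shock genes, which encode chaperones and their regulators, fell in 3 of 103 tested members. That share was 2.91%, against 1.16% of all tested genes. The median was -0.28 (-0.42 without replicate 3 of 30 min and -0.45 without replicate 1 of 3 h). The factor gene HORVU.MOREX.r2.5HG0423600.1, similar to rice heat stress factor A-2b, was at 43.6, 55.2 and 2.1 CPM at 30 min and at 1.06, 1.3 and 1.49 CPM at 3 h (-4.70 ± 1.10, edgeR adjusted p = 0.0464). Replicates 1 and 2 of 30 min were high and replicate 3 was near the 3 h level, and the same held at 1 h (22.1, 24.6 and 1.76 CPM). The small heat shock protein gene HORVU.MOREX.r2.6HG0515330.1 was at 118, 156 and 28.3 CPM and then at 4, 10.3 and 7.18 CPM (-3.81 ± 0.81, edgeR adjusted p = 0.0304). Its replicate 3 of 30 min was also the lowest of that time. The small heat shock protein gene HORVU.MOREX.r2.4HG0323890.1 was at 123, 128 and 31 CPM and then at 18.8, 21 and 18.6 CPM (-2.27 ± 0.53, edgeR adjusted p = 0.0449). No heat shock gene rose (1 with the replicate block). The count of falls was 0 without replicate 1 or 2 of 30 min or without any library of 3 h, 13 without replicate 3 of 30 min, and 15 with the replicate block.

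MYB genes, a large family of regulators of metabolism, stress and the clock, fell in 8 of 99 tested members and rose in none. Their share of falls was 8.08%, against 1.16% of all tested genes. The median was -0.26 (-0.15 without replicate 3 of 30 min), and the replicate block gave 19 falls and 4 rises. Their falls numbered 4 without replicate 2 of 30 min or replicate 1 or 2 of 3 h. Leaving out replicate 3 gave 5 falls where it was that of 30 min and 3 where it was that of 3 h. Rises numbered 1 on leaving out replicate 3 of 30 min and 2 on leaving out replicate 1 of 3 h. The gene with the smallest p, HORVU.MOREX.r2.7HG0622940.1, is similar to the clock-linked factor REVEILLE 2 and was at 23.8, 15.1 and 12 CPM and then at 2.85, 3.53 and 3.75 CPM (-2.32 ± 0.27, edgeR adjusted p = 0.000737). Its 0 h libraries were above all others, at 34.5, 25.1 and 28.4 CPM. WRKY factors, linked to defence, gave 2 rises and 3 falls among 85 (3 and 7 with the replicate block). These shares, 2.35% and 3.53%, were not far above the 1.52% and 1.16% of all tested genes. Falls numbered 1 without replicate 2 or 3 of either time and 6 without replicate 1 of 3 h. The WRKY40-like gene HORVU.MOREX.r2.5HG0400740.1 was at 5.77, 5.73 and 5.41 CPM and then at 1.75, 1.5 and 1.86 CPM (-1.72 ± 0.18, edgeR adjusted p = 0.00037), below its 1 h level of 8.28, 8.27 and 10.1 CPM. The WRKY gene HORVU.MOREX.r2.6HG0497280.1 rose, from 2.33, 1.53 and 2.9 CPM to 17.4, 17.6 and 18.9 CPM (2.99 ± 0.32, edgeR adjusted p = 0.000439). NAC factors gave 5 rises and 3 falls among 87 (8 and 3 with the replicate block), or 5.75% and 3.45%. They gave 1 fall without replicate 1 or 2 of 30 min and none without replicate 3 of 3 h. The strongest by p, HORVU.MOREX.r2.3HG0247070.1, was at 3.55, 1.65 and 2.9 CPM and then at 13.1, 15.4 and 28.5 CPM (2.82 ± 0.37, edgeR adjusted p = 0.00169).

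Other large rises came in regulators outside the hormone lists. The PRE6-like gene HORVU.MOREX.r2.7HG0552630.1, of a class of small helix-loop-helix proteins that promote elongation in Arabidopsis, was at 0.444, 0.0424 and 0.267 CPM and then at 5.66, 6.29 and 8.04 CPM (4.76 ± 0.75, edgeR adjusted p = 0.00487). A helix-loop-helix gene whose Arabidopsis homolog is listed as AIG1, HORVU.MOREX.r2.5HG0403920.1, was at 4.27, 5.01 and 3.7 CPM and then at 91, 87.9 and 92.4 CPM (4.39 ± 0.28, edgeR adjusted p = 1.90e-05). Both groups of libraries were tight in the second gene. A pair of bZIP factor genes that share 1 listed Arabidopsis homolog, BZIP42, rose alongside. HORVU.MOREX.r2.7HG0557340.1 was at 1.39, 1.95 and 1.6 CPM and then at 18.7, 29 and 29 CPM (3.95 ± 0.42, edgeR adjusted p = 0.000425). HORVU.MOREX.r2.6HG0507030.1 was at 1.55, 2.46 and 0.724 CPM and then at 21, 16.4 and 28.1 CPM (3.79 ± 0.41, edgeR adjusted p = 0.000425). Glutaredoxin genes, for small redox enzymes, also rose. HORVU.MOREX.r2.2HG0126030.1 was at 1.28, 1.4 and 1.68 CPM and then at 23.1, 28.6 and 31.5 CPM (4.24 ± 0.38, edgeR adjusted p = 0.000141). HORVU.MOREX.r2.2HG0134960.1 was at 3.38, 5.47 and 3.97 CPM and then at 35, 51.8 and 55.9 CPM (3.47 ± 0.31, edgeR adjusted p = 0.000141). The CCT-motif gene HORVU.MOREX.r2.4HG0343050.1, of the CONSTANS-like type, was at 1.16, 0.637 and 0.458 CPM and then at 10.7, 14.8 and 12.9 CPM (4.11 ± 0.55, edgeR adjusted p = 0.0019). The largest estimated rise of the named genes was that of a lectin kinase gene, HORVU.MOREX.r2.UnG0633560.1, at 8.08 ± 1.74 (edgeR adjusted p = 0.0308). It was at 0.444, 0.0424 and 0.343 CPM and then at 0.782, 165 and 55.8 CPM, so that replicate 1 of 3 h stayed near the 30 min level. Its call was lost on leaving out any 1 library other than replicate 1 of 3 h (edgeR adjusted p up to 0.136).

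Falls with none of the roles above included the short-chain dehydrogenase gene HORVU.MOREX.r2.7HG0534500.1, which was at 31, 21.9 and 40.6 CPM and then at 1.89, 1.66 and 0.66 CPM (-4.48 ± 0.42, edgeR adjusted p = 0.000194). All 9 earlier libraries lay above those of 3 h. The senescence-associated (DUF581) gene HORVU.MOREX.r2.4HG0337740.1 was at 1.16, 4.75 and 8.31 CPM and then at 0.184, 0.0811 and 0.165 CPM (-5.02 ± 0.80, edgeR adjusted p = 0.00526), and it was below 1 CPM in all 0 h and 1 h libraries. The phosphatase 2C gene HORVU.MOREX.r2.1HG0048580.1 was at 12, 30.8 and 17.6 CPM and then at 2.62, 3.33 and 1.9 CPM (-2.95 ± 0.38, edgeR adjusted p = 0.00135). The nitrate and peptide transporter gene HORVU.MOREX.r2.5HG0438580.1 was at 42.7, 36.9 and 43 CPM and then at 3.5, 8.19 and 6.48 CPM (-2.75 ± 0.29, edgeR adjusted p = 0.000405).

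Metabolic, wall and growth lists gave small numbers of calls, to be read beside 1.52% higher and 1.16% lower over all tested genes. Cytochrome P450 genes stood above these shares, at 3.14% and 4.48%, and peroxidases were nearer, at 2.38% and 1.59%. Cytochrome P450 genes gave 7 rises and 10 falls among 223 (9 and 22 with the replicate block), and the counts moved with the libraries. Rises numbered 3 or 4 without any 1 library of 30 min or replicate 2 or 3 of 3 h. Falls numbered 5 without replicate 1 of 3 h, 2 without replicate 2 of either time, 1 without replicate 3 of 30 min and 0 without replicate 3 of 3 h. A P450 gene similar to Arabidopsis CYP734A1, whose enzyme inactivates brassinosteroids, HORVU.MOREX.r2.7HG0592200.1, was at 2.16, 2.46 and 4.69 CPM and then at 14.1, 19.7 and 24.1 CPM (2.63 ± 0.35, edgeR adjusted p = 0.00183). The cinnamate 4-hydroxylase gene HORVU.MOREX.r2.3HG0201730.1, for an early step of lignin synthesis, rose by 2.19 ± 0.34 (edgeR adjusted p = 0.00405). Among peroxidases, 3 of 126 rose and 2 fell (8 and 12 with the replicate block), led by HORVU.MOREX.r2.5HG0404500.1 at 9.7, 11.5 and 10.9 CPM and then 49, 66.4 and 58.3 CPM (2.43 ± 0.17, edgeR adjusted p = 3.53e-05). Expansins, which loosen walls, gave 1 rise among 43 (8, and 1 fall, with the replicate block, and 3 rises without replicate 1 of 3 h), in HORVU.MOREX.r2.5HG0437890.1 (1.54 ± 0.17, edgeR adjusted p = 0.000552). Xyloglucan endotransglucosylases, which remodel walls, gave 2 rises and 3 falls among 34 (no fall without replicate 1 or 2 of 30 min or replicate 3 of 3 h, 1 without replicate 2 of 3 h, no rise without replicate 2 of 30 min, and 1 rise without replicate 3 of 30 min or replicate 1 or 2 of 3 h). Pectin-modifying enzymes gave 2 rises and 3 falls among 80 (7 and 5 with the replicate block, 1 rise without any 1 library of 30 min or replicate 2 of 3 h, and 4 rises without replicate 1 of 3 h). The pectin methylesterase inhibitor gene HORVU.MOREX.r2.1HG0039150.1 was at 33.1, 25.7 and 28.9 CPM and then at 151, 157 and 94.1 CPM (2.20 ± 0.21, edgeR adjusted p = 0.000212). Cellulose synthases and their relatives gave 2 falls among 36 (6, and 1 rise, with the replicate block), 1 on leaving out replicate 2 of 3 h and none on leaving out replicate 2 of 30 min or replicate 1 or 3 of 3 h, with a median of -0.27. Cyclins and cyclin-dependent kinases gave 2 rises and 2 falls among 84 (2 and 5 with the replicate block, and 1 rise without any 1 library of 30 min or replicate 2 of 3 h). One of those rises, HORVU.MOREX.r2.5HG0350330.1 at 3.16 ± 0.41 (edgeR adjusted p = 0.0015), is described as a cycling DOF factor, a regulator of flowering time in Arabidopsis and no cyclin. The kinase inhibitor HORVU.MOREX.r2.4HG0340150.1 was at 48.9, 44.9 and 45.5 CPM and then at 24.9, 24.7 and 26.3 CPM (-0.88 ± 0.14, edgeR adjusted p = 0.00424). Of 166 core histone genes none passed, or 1 higher and 2 lower with the replicate block, and the median was -0.17 (-0.29 on leaving out replicate 1 of 3 h, -0.077 on leaving out replicate 3 of 3 h). Only 22 of the 166 lay above 0. In 23 all 3 h libraries lay below all 30 min libraries and in 1 above, against 8.03% and 7.3% of all tested genes. Of 392 ribosomal protein genes 3 rose (0.77%, against 1.52% of all tested genes), with a median of 0.15, or 0.09 without replicate 1 of 3 h. Members above 0 numbered 325, against 12260 of the 24920 tested genes. Against 0 h the family median was -0.088 at 30 min and 0.057 at 3 h. The ribosomal rises numbered 8 with the replicate block, and 1 without any 1 library other than replicate 1 of 3 h. The steepest, the S2 gene HORVU.MOREX.r2.7HG0599820.1, was at 8.37, 2.59 and 5.61 CPM and then at 88.6, 67.4 and 61.7 CPM (3.72 ± 0.43, edgeR adjusted p = 0.000617). Aquaporins had a median of -0.50 and no call among 29, or 3 falls with the replicate block.

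Protein turnover, stress and transport lists held the remaining calls of the lists. Ubiquitin ligases (2.08% higher and 1.13% lower) and calcium sensors (1.61% and 1.61%) lay near the shares of all tested genes, 1.52% and 1.16%. Protein phosphatases 2C lay above them, at 4.62% and 3.08%. Ubiquitin ligases, which mark proteins for destruction, gave 11 rises and 6 falls among 530 (16 and 18 with the replicate block). Leaving out replicate 1 or 2 of 30 min gave 3 or 2 falls, and leaving out replicate 2 or 3 of 3 h gave 2 or 3; rises numbered 7 without replicate 2 of 30 min or replicate 2 or 3 of 3 h. The RING gene HORVU.MOREX.r2.2HG0102830.1 was at 1.5, 1.19 and 1.87 CPM and then at 16.8, 22.8 and 20.6 CPM (3.72 ± 0.30, edgeR adjusted p = 9.88e-05). The DnaJ gene HORVU.MOREX.r2.7HG0609890.1, for a co-chaperone, was at 6.71, 8.61 and 7.36 CPM and then at 47.5, 57.9 and 67.8 CPM (2.93 ± 0.27, edgeR adjusted p = 0.000156). Its list of 143 gave 2 rises and 1 fall (5 and 5 with the replicate block). Glutathione S-transferases, which detoxify, gave 4 rises and no fall among 87 (9 and 1 with the replicate block, and 1, 2 and 2 rises without replicate 2 of 30 min, replicate 2 of 3 h and replicate 3 of 3 h). The U17-like gene HORVU.MOREX.r2.1HG0040630.1 was at 6.43, 3.18 and 7.28 CPM and then at 23.7, 38.2 and 52.4 CPM (2.76 ± 0.47, edgeR adjusted p = 0.00767). Protein phosphatases 2C, several of which are negative regulators of abscisic acid signalling, gave 3 rises and 2 falls among 65 (4 and 4 with the replicate block, and 1 rise without replicate 3 of 3 h), and the HAI3-like gene HORVU.MOREX.r2.5HG0392330.1 rose by 2.22 ± 0.24 (edgeR adjusted p = 0.000405). Nitrate and peptide transporters gave 2 rises and 2 falls among 41. The transporter gene HORVU.MOREX.r2.4HG0287740.1 was at 19.6, 17.6 and 27.2 CPM and then at 76, 92.5 and 109 CPM (2.11 ± 0.23, edgeR adjusted p = 0.000532). The SWEET sugar exporter gene HORVU.MOREX.r2.6HG0521400.1, the 1 fall among 55 sugar transporters (3 with the replicate block), was at 13.3, 12.4 and 13 CPM and then at 5.11, 6.69 and 5.69 CPM (-1.15 ± 0.20, edgeR adjusted p = 0.00922). Calcium sensors gave 2 rises and 2 falls among 124 (4 and 4 with the replicate block), clock and CONSTANS-like genes 2 rises among 32 (4, with 4 falls), and ABC transporters 2 rises among 104 (5, with 2 falls). UDP-glycosyltransferases gave 2 rises among 35, tubulins and kinesins 1 fall among 117 (2, with 2 rises), and late embryogenesis genes no call among 46 (1 rise and 1 fall). In these 6 lists and in the transporter and DnaJ lists, leaving out 1 library left from 0 to 4 calls in a direction.

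**Figure D4:**
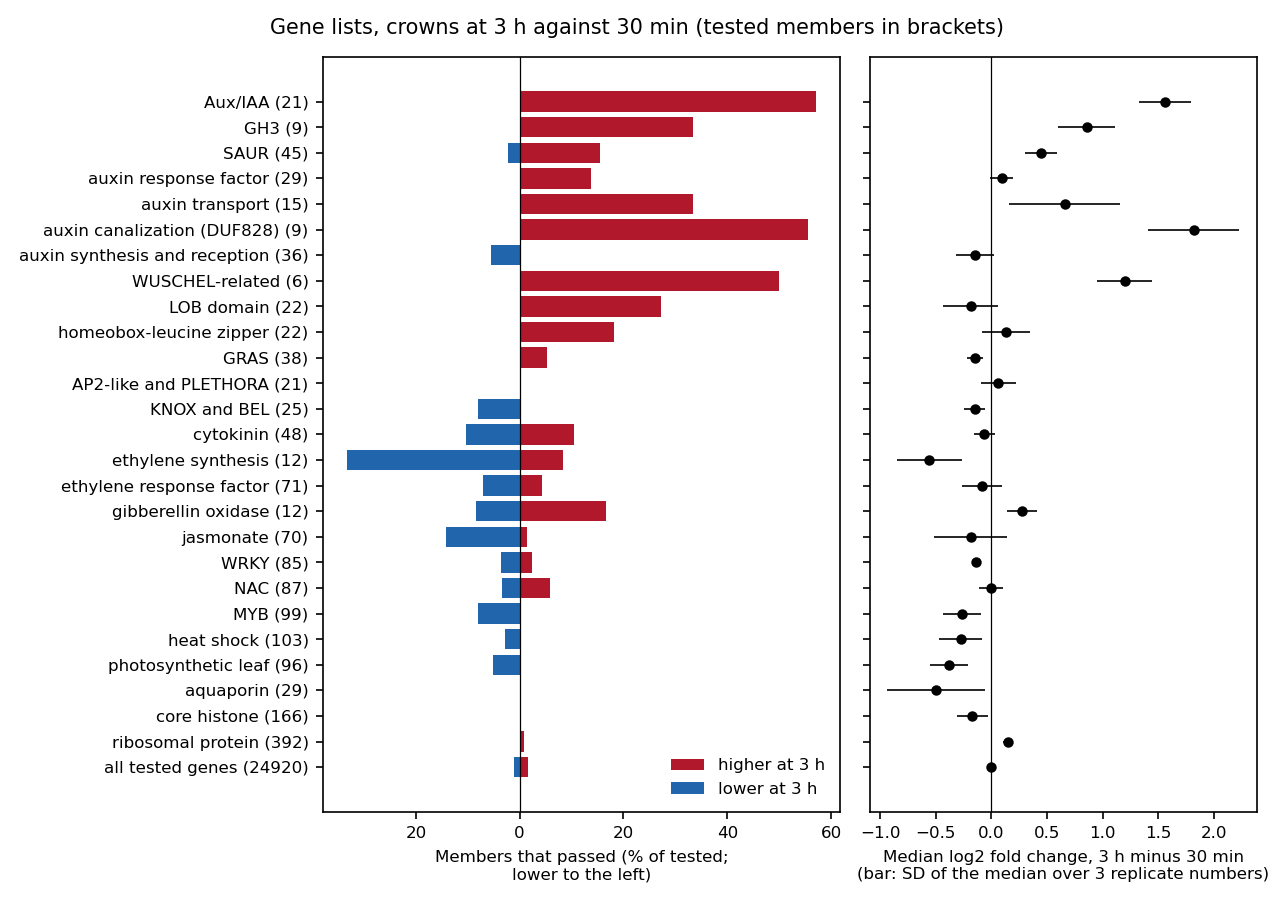
On the left, bars give the share of each list's tested members that passed (%), higher at 3 h to the right and lower to the left. On the right, points give the list's median log2 fold change and bars its SD over the 3 replicate numbers. Aux/IAA genes have 57.1% of their members higher and ethylene synthesis genes 33.3% lower, against 1.52% and 1.16% of all tested genes.

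Markers of cell types that a crown can hold, and a list of grain proteins, were read as summed levels. All 6 marker lists were detected in every library compared. As the lists were matched by words, detection does not show which cells were present. Photosynthetic genes (photosystem, chlorophyll-binding and Rubisco small subunit genes, 96 tested) summed to 6012 to 7098 CPM at 30 min and 4846 to 5665 CPM at 3 h, without overlap, and their median was -0.38. Of these 5 fell and none rose (15 falls with the replicate block, 0 and 1 on leaving out replicate 3 or 1 of 3 h, and 3, 1 and 2 on leaving out replicates 1, 2 and 3 of 30 min in turn). The chlorophyll-binding protein gene HORVU.MOREX.r2.6HG0460220.1 was at 15.4, 23.1 and 21.2 CPM and then at 3.73, 10.1 and 4.21 CPM (-1.73 ± 0.33, edgeR adjusted p = 0.0161), and lost its call without replicate 2 of 30 min or replicate 3 of 3 h (edgeR adjusted p up to 0.0779). In pooled tissue, fewer green cells and less of this RNA per cell cannot be told apart. How much of the falls of other genes goes with this shift was not tested. The sums of xylem markers (136 to 206 CPM at 30 min and 152 to 209 CPM at 3 h) overlapped between times, and so did those of root hair markers (98.1 to 119 and 104 to 119 CPM) and Casparian strip markers (447 to 515 and 417 to 535 CPM). Phloem markers summed to 730 to 797 CPM and 706 to 709 CPM, and grain proteins to 129 to 138 CPM and 139 to 156 CPM, both without overlap. The gaps were narrow: the highest grain sum of 30 min was 137.7 CPM and the lowest of 3 h was 139.5 CPM. At 0 h the sums ran from 706 to 771 CPM for phloem and from 128 to 143 CPM for grain. In the 5 marker lists other than the photosynthetic one, 1 phloem and 1 Casparian strip member rose and none fell. With the replicate block 2 Casparian strip members fell, and 1 fell without replicate 2 of 30 min or replicate 2 of 3 h. The phloem protein gene HORVU.MOREX.r2.3HG0201600.1 rose by 1.43 ± 0.26 (edgeR adjusted p = 0.0111, and 0.0524 without replicate 3 of 3 h). The CASP-like gene HORVU.MOREX.r2.5HG0426390.1 rose by 1.13 ± 0.26 (edgeR adjusted p = 0.0432) and was lost without any 1 library other than replicate 1 of 30 min (edgeR adjusted p up to 0.162).

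The 0 h and 1 h libraries share no library with those compared, and were used to see where the called genes stood. From 0 h to 1 h, 273 of the 378 genes that rose (72.2%) lay above 0, with a median log2 fold change of 0.26, against 49.5% and -0.0035 for all tested genes. The genes that fell did the same: 211 of 289 (73.0%) were higher at 1 h than at 0 h, with a median of 0.27. The median of the risers was highest, at 0.457, with genes called without replicate 2 of 30 min, was 0.405 and 0.425 without replicate 2 and replicate 3 of 3 h, was 0.143 with the replicate block and 0.141 with DESeq2. That of the fallers was lowest, at 0.0986, without replicate 2 of 3 h, and was 0.178 without replicate 2 of 30 min. Of 24 genes that passed at 1 h against 0 h (0.0963% of tested genes), all of them upward, 19 were among the risers and 3 among the fallers. At 30 min against 0 h 1 gene passed (0.00401%, upward), and at 3 h against 0 h 418 passed upward (1.68%) and 199 downward (0.799%). These share libraries with the comparison described here. Against 0 h, the risers had a median of -0.009 at 30 min and 1.71 at 3 h, and the fallers 0.38 at 30 min and -0.88 at 3 h. At 1 h against 0 h, the first GH3.3 gene above (HORVU.MOREX.r2.2HG0106420.1) was at 3.77 ± 0.25, the WOX11 homolog HORVU.MOREX.r2.2HG0091310.1 at 2.30 ± 0.33 and the helix-loop-helix gene HORVU.MOREX.r2.3HG0181460.1, which later fell, at 1.26 ± 0.37 on the log2 scale.

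**Figure D5:**
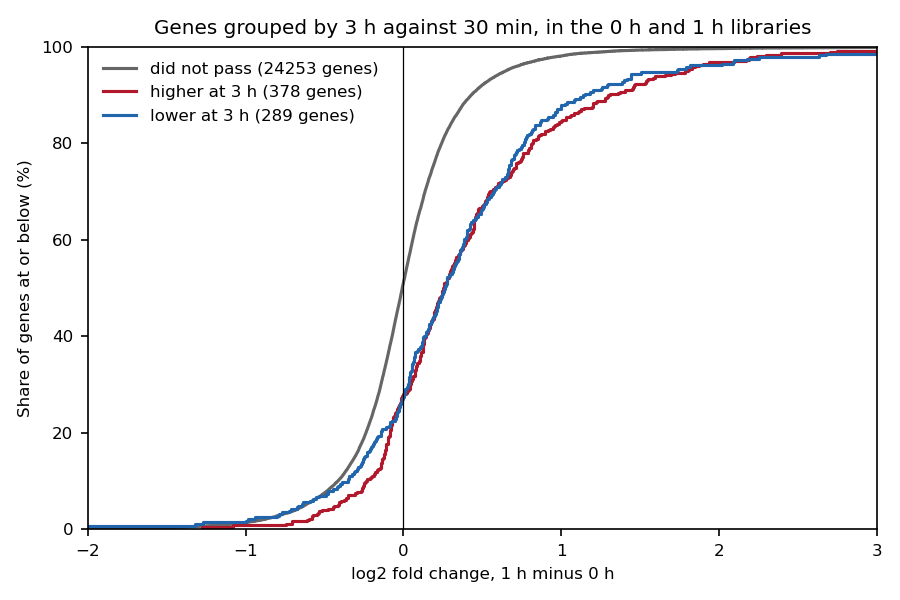
Cumulative share of genes (%) by their log2 fold change from 0 h to 1 h, for the 378 genes higher at 3 h than at 30 min (red), the 289 lower (blue) and the 24253 that did not pass (grey). Red and blue curves lie together and to the right of grey, with 72.2% and 73.0% of genes above 0.

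The authors' deposited table for the same comparison lists 673 genes as higher and 662 as lower, of 26158 with an adjusted p-value (2.57% and 2.53%). By that table, 377 of the 378 rises (99.7%) and all 289 falls (100%) were called in the same direction. They make up 56.0% and 43.7% of its calls, and no gene was called in opposite directions. Along the chromosomes, 28 runs of adjacent tested genes rose together (58 genes, at most 3 in a run) and 10 fell together (22 genes, at most 4), and the JAZ genes on 7H formed the longest.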

How the data were processed

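Poly(A) RNA of 12 pools of 5 crowns was sequenced as paired reads of 150 bases, and 6 libraries were compared here. The authors deposited raw read counts for 63658 genes, in a table of counts and in a table of comparisons that hold the same counts (100% of cells equal). Tools listed in the submitters' processing notes are Subread 1.5.2, SAMtools, HISAT2 2.0.5 and bcl2fastq. The gene identifiers carry the label MOREX.r2, while the plants were of cultivar Golden Promise. Beyond that label, no source used here gives the genome build, the strand setting or the treatment of reads that match several genes. Near-identical, overlapping or antisense genes may therefore share reads. Coordinates, descriptions and homologs are those of the deposited tables. The authors' deposited log2 fold changes and adjusted p-values were used only where named, and their test is not given in the sources used here.

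All counts below were analysed in R 4.3.3 (DESeq2 1.42.0, limma 3.58.1, edgeR 4.0.16), and figures were drawn in Python 3.11.15 with matplotlib 3.10.9. A row of total reads (1) was left out except for the share of reads assigned. Of the 63658 genes, 26328 had no read in any library and 24920 passed a filter (filterByExpr, minimum count 10, minimum total 15). Libraries were scaled by TMM factors. CPM values printed are scaled to assigned reads times these factors. The 4 times were fitted in 1 model with edgeR's quasi-likelihood test, with 8 residual degrees of freedom and 3.59 prior degrees in the median. P-values were two-sided and adjusted by Benjamini-Hochberg over the tested genes, with 0.05 as the threshold, and a prior count of 2 was used for log2 values. At 30 min 3 reads correspond to 0.114 to 0.166 CPM and at 3 h to 0.122 to 0.138 CPM.

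Replicate numbers were given in both groups by the labels, which do not say what a number shares. Residuals of same-numbered libraries of 30 min and 3 h correlated at 0.674, 0.290 and 0.454 over genes, and those of differently numbered libraries at -0.593 to 0.268. All 3 exceed 0.1, the limit set, so the numbers were taken to pair the libraries. Replicate 2 of 30 min with replicate 3 of 3 h gave 0.268, and replicate 3 of 30 min with replicate 2 of 3 h gave 0.142. These also exceed 0.1, so the limit cannot show that replicates 2 and 3 are paired by number. The reported fit has no block for these numbers, so its counts and p-values leave the pairing out. Counts with the number as a block are an alternative, given where they move the count of a list by over 1.5 times. No 2 replicates agreed within sampling noise (chi-square over degrees of freedom from 19.8 to 91.7).

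Members and lists were chosen with earlier results of these data known. The 44 gene lists and 6 marker lists were matched by words in the gene descriptions, and words that matched unrelated genes were amended after descriptions and counts had been seen. The canalization list and the splits of the jasmonate, cytokinin, ethylene and heat shock lists were made after their values were seen. Genes were named by a rule: the 12 largest rises and 12 largest falls with no overlap of the groups and a mean of 1 CPM or more, the 2 smallest p-values of each list, the most abundant member of each marker list, and the homologs of rice CRL1, CRL4, CRL5, QHB and WOX11, of which only CRL1, CRL4 and WOX11 were matched by the rice identifiers in the table. Homologs were also sought by words in homolog descriptions, for WOX11, WOX5, SHORT-ROOT, SCARECROW, quiescent centre and maize rootless genes. Another 24 genes were added after their values were seen: the GH3.6-like, DAO, IAA4-like, WOX5-like, LBD18-like and isopentenyltransferase genes, the 4HG0346890 canalization gene, the 1H LOG-type gene, the cytokinin oxidases, the response regulator, the falling ACC synthase and the 6HG0513110 ACC oxidase, JAZ genes 7HG0555350 and 5HG0398310, the lipoxygenase, the 3H helix-loop-helix factor, the glutaredoxins, the bZIP factors and the falling SAUR gene. Of these, 1 is not reported here. Alternatives were other scalings (RLE, upper quartile), no filter, the 6 libraries alone, the replicate block, DESeq2 and leaving out each library.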

Additional observations from a re-analysis of the deposited data

How the results depend on the processing

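Rises and falls numbered 378 and 289 as reported. With the 30 min and 3 h libraries fitted alone they numbered 223 and 88, which is a fit with fewer samples. With the replicate block they numbered 750 and 834, with the block and these 6 libraries alone 794 and 751, and with DESeq2 693 (2.78%) and 675 (2.71%). Leaving out 1 library gave from 218 to 410 rises and from 116 to 300 falls, and leaving out replicate 1 of both times 300 and 184. RLE scaling (382 and 268), upper quartile scaling (380 and 301) and no filter (380 and 303) moved them less. No gene called in the reported fit was called in the opposite direction in any of these 14 alternatives, and all 667 were called with the block and with DESeq2. The median of the risers from 0 h to 1 h was 0.143 with the replicate block, 0.141 with DESeq2, 0.415 without replicate 1 of both times and 0.278 to 0.457 without 1 library; that of the fallers was 0.0986 to 0.302 without 1 library. Of 147 named genes 120 passed, 77 of them in all 14 alternatives, and 10 of the other 27 passed in at least 1 alternative, 8 with the block.

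Of the named genes 4 that did not pass changed sign, all from values close to 0. HORVU.MOREX.r2.4HG0278080.1 (CRL4 homolog, -0.0046 as reported) was at 0.0084 with RLE scaling, 0.0038 with no filter, 0.014 with the 6 libraries, 0.012 with the block and the 6 libraries, 0.0079 with DESeq2 and 0.0079 without replicate 1 of both times. HORVU.MOREX.r2.2HG0130510.1 (CASP-like) was at 0.0032, 0.0059, 0.00076 and 0.0033 with RLE scaling, the 6 libraries, the block with the 6 libraries and DESeq2. HORVU.MOREX.r2.3HG0221540.1 (root hair defective homolog) was at 0.00076, 0.0060, 0.0085 and 0.00049 with the same. Without 1 library these genes ranged from -0.13 to 0.13, from -0.14 to 0.13 and from -0.12 to 0.065, and HORVU.MOREX.r2.3HG0252310.1 (laccase) from -0.20 to 0.10. The causes of these changes were not tested. Depth limits most the genes under about 0.166 CPM, the level of 3 reads in the shallowest of the 6 libraries, and also genes somewhat above it. Having 3 pools a time limits all genes. Counting error and spread between pools were not separated.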
